A study of Drosophila melanogaster with 66 samples.

Results

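Male and female flies of the F3 generation were compared on 16 of the 66 whole-fly arrays of a Drosophila melanogaster series. All 8 male arrays, 4 of the control lineage and 4 of the test lineage, were set against all 8 female arrays, also 4 of each lineage, with lineage as a covariate. The series followed flies over several generations from founders whose insulin-producing cells had been removed genetically. In those founders ilp3-GAL4, a driver taken from an insulin-like peptide gene, switched on UAS-rpr, which carries the cell death gene reaper, over the balancers CyO-YFP and Ser-GFP. Test males of each generation were crossed to females of the w1118 control lineage. By F3 all flies were labelled w1118 without any construct, so every F3 array, test and control, came from flies of 1 genotype, and the white mutation was shared by all of them. Cultures were kept at 25 °C with a 12-hour light cycle, parents were mated in groups of 150, and each sample was total RNA of 80 to 90 pooled flies that had eclosed in the first 5 days. The pools average over flies, and nothing in the labels gives the flies' exact age or mating state.

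In Drosophila the ratio of X chromosomes to autosomes sets Sex-lethal, which controls the splicing of transformer and through it the sex-specific splicing of doublesex and fruitless. Doublesex proteins of both sexes act in the soma on yolk protein, pheromone and head fat body genes, while the male-specific lethal complex raises transcription of the single male X. Adult females make yolk in the fat body and eggs in large ovaries. Adult males carry testes, accessory glands and an ejaculatory duct and bulb, whose secreted proteins pass to the female at mating.

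Expression values were the deposited log2 levels, in which a step of 1 is a factor of 2, and every difference below is male minus female on that scale. Of 17104 entries (1 probe set for each gene, plus probe sets without a single gene name), 11129 had a level above 2.57 on at least 4 of the 16 arrays and were tested. The lowest value of the table was 2.23, so a gene near that value had no measurable level. A gene was called when its adjusted p in limma, corrected over all 11129 entries, was under 0.05. Where 1 sex lay wholly under 2.57 on all 8 arrays, the fold is given as a lower limit.

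Markers of each sex matched the labelled sex on all 16 arrays. The 5 measured ovary markers, the chorion genes Cp36 and Cp38, the vitelline membrane gene Vm26Aa, and the maternal transcripts osk and bcd, lay between 10.32 and 13.65 in females and between 2.23 and 2.68 in males. Yolk protein genes Yp1, Yp2 and Yp3 lay between 13.50 and 14.52 in females and between 2.37 and 4.09 in males. The 5 male tract markers, among them the sex peptide gene SP and the seminal protein genes Acp26Aa and Acp36DE, lay at 11.48 or higher on every male array and between 2.23 and 2.79 in females. Of the 5 testis markers, aly was near the lowest value in both sexes and marked neither. Markers of eye, flight muscle, neurons, midgut, hemocytes, fat body and Malpighian tubule were measured in both sexes, which the whole-fly extracts contain. Correlations between arrays were 0.985 to 0.996 among males, 0.970 to 0.998 among females and 0.450 to 0.567 between the sexes.

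Sex set the level of most of the transcriptome. Of the 11129 entries, 10097 (90.7%) were called, 4897 (44.0%) higher in males and 5200 (46.7%) higher in females. At least 2-fold differences that were called numbered 7267 (65.3%), of which 3511 (31.5%) were higher in males and 3756 (33.7%) in females. The 8 male and 8 female arrays did not overlap in 8450 entries (75.9%). The median difference over all tested entries was -0.05, and it was -0.26 after quantile normalization and 0.20 with each array centred on its median. List medians moved by other amounts under these rescalings, and lists whose median turned are named below. With so many calls, a list is described by its split between the sexes and its median rather than by how many members were called. Whole-fly RNA was measured, so fewer cells of a type and less RNA per cell cannot be told apart in any of these differences, and the share of gonad RNA in each extract was not measured.

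Outside the reproductive lists the split was nearly the same. Without the entries of those lists, 4822 of the remaining 11006 were higher in males and 5155 higher in females, with a median of -0.06. The plot of differences by list shows where 29 lists outside the gonads fell.

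**Figure D1:**
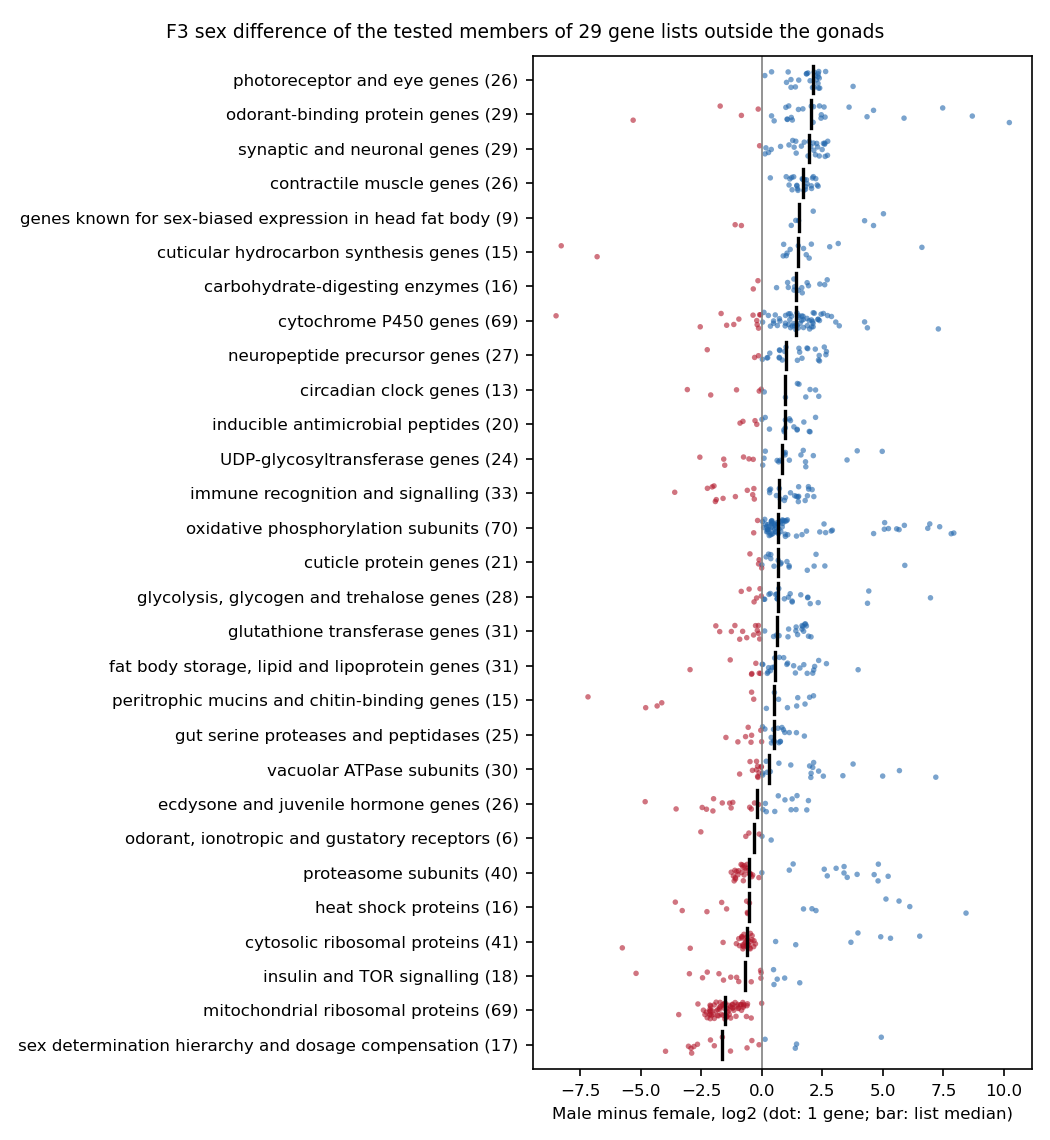
Male minus female difference on the log2 scale (x axis) for each tested member (dot, blue above 0 and red below 0) of 29 gene lists with at least 5 tested members; black bars are list medians, a dot of a gene with 1 sex wholly under 2.57 marks a fitted value and no bound, and the number of tested members stands in brackets. Eye, odorant-binding protein, synaptic and muscle lists lie at the top with medians from 2.13 to 1.72, and mitochondrial ribosomal proteins and the sex determination list at the bottom with -1.53 and -1.63.

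Among genes with a symbol the largest differences lay in the reproductive lists and the yolk list, and they served as a check of the labels. The largest male difference of all, 12.40, was in an entry without a single gene name and in none of these lists. The ejaculatory bulb protein gene EbpII had a median of 14.65 in males and 2.24 in females, at least 4306-fold higher in males. For Acp98AB, Ebp, Acp53Ea and Acp53C14a, whose female arrays were also all under 2.57, the male level was at least 3760-, 2799-, 2217- and 2097-fold higher. On the female side Yp2 stood at a median of 14.36 against 2.45 in males, at least 3476-fold higher in females. The chorion gene Cp19 was at least 2192-fold higher in females. The maternal thioredoxin gene dhd (-11.30) and the chorion genes Cp15 (-11.06) and Cp36 (-10.88) also had large female excesses. All 16 tested eggshell genes, 26 of 27 female germline genes and the 3 yolk genes were higher in females. All 35 tested testis genes and 34 of 35 male tract genes were higher in males. The 3 Y-linked genes that passed the filter, ARY, Pp1-Y2 and ORY, were higher in males by at least 4.03-, 4.18- and 3.55-fold, with all 8 female arrays of each under 2.57.

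The list labelled spermathecal and female tract held genes higher in each sex. Of 7 tested members, 3 were higher in males and 3 in females, and the median of 0.08 turned to -0.83 after quantile normalization. Send1, a serine protease of the spermatheca, lay between 7.08 and 8.65 in females and at 2.23 on all male arrays. In contrast fest had a median of 12.02 in males and 3.17 in females, and sphinx1 was higher in males by 2.53. List members were matched by symbol, and whether fest and sphinx1 act in the female tract was not tested. Their male levels are therefore no result about female tract genes.

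The genes that carry out sex determination were themselves different between the sexes, mostly with the female level higher. Of 17 tested members of the sex determination and dosage compensation list, 12 were higher in females, 3 (dsx, fru and msl-2) were higher in males, and 2 (Sxl and her) were not called. Their median of -1.63 compares with -0.05 over all entries.

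The clearest case was doublesex (dsx), on chromosome arm 3R, whose 2 probe sets went opposite ways. The probe set with the higher mean level read 9.60 to 10.07, median 9.86, in males and 4.29 to 5.60, median 4.98, in females. Every male array was therefore more than 3 units above every female array, a difference of 4.93 (SE 0.13, adjusted p = 2.17e-16). The second probe set read 2.85 to 3.97, median 3.55, in males and 6.61 to 7.88, median 7.20, in females. There the difference was -3.84 (SE 0.21, adjusted p = 6.13e-12 over all probe sets), again without overlap. The gene is known for male and female messages with different 3' ends, but which exons the probe sets read was not analysed here.

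Sex-lethal (Sxl), the X-linked switch at the top of the pathway, had 3 probe sets that also differed among themselves. Its most abundant probe set read 9.67 to 9.84 in males and 9.58 to 10.10 in females, so the sexes overlapped and the difference of -0.11 (SE 0.07, adjusted p = 0.149) was not called. The other probe sets were higher in males by 1.22 (SE 0.13) and 0.64 (SE 0.17). Transformer (tra), its splicing target, read 5.30 to 6.42 in males and 7.26 to 7.73 in females, a difference of -1.63 (SE 0.14, adjusted p = 6.81e-09). Its cofactor tra2 was lower in males by a smaller step, -1.29 (SE 0.06), with no overlap.

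Fruitless (fru), which acts in the nervous system for male courtship, read 6.87 to 7.86 in males and 5.40 to 6.60 in females, a difference of 1.38 (SE 0.16, adjusted p = 3.01e-07). A second tested fru probe set lay near 3 in both sexes and was not called (-0.25, adjusted p = 0.123). The doublesex cofactor intersex (ix) had a median of 3.79 in males and 6.81 in females, a difference of -3.03. The transcription factor retained (retn) had medians of 7.07 and 11.08, a difference of -3.98, the largest female excess in the list. The splicing factors nito (-2.92), fl(2)d (-2.12) and vir (-0.61), partners of Sex-lethal, were also higher in females.

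The dosage compensation genes split with msl-2 on one side and its partners on the other. Male-specific lethal 2 (msl-2), the subunit whose translation Sex-lethal blocks in females, read 6.67 to 7.13 in males and 5.18 to 5.70 in females, a difference of 1.43 (SE 0.10, adjusted p = 1.06e-10). The scaffold gene msl-1 read 4.79 to 5.37 in males and 7.64 to 8.25 in females, a difference of -2.80 (SE 0.11). Similar female excesses held for msl-3 (-2.90, and -2.82 in its second probe set) and the acetyltransferase gene mof (-2.66). Clamp, which binds X chromosome entry sites, was also higher in females (-1.96). For the helicase gene mle the sexes overlapped, at 6.22 to 7.08 and 6.48 to 7.67, and the difference of -0.41 (SE 0.15) was called in the main comparison but not after either rescaling of the arrays.

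**Figure D2:**
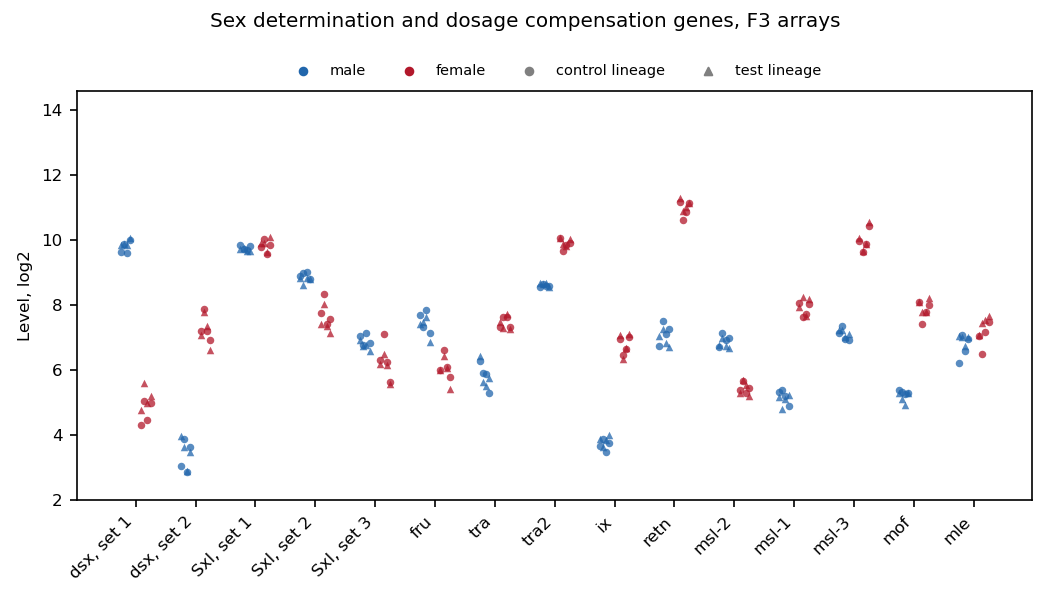
Log2 level (y axis) of sex determination and dosage compensation genes on each F3 array, males in blue and females in red, control lineage as circles and test lineage as triangles; sets 1 to 3 are different probe sets of a gene. The dsx probe sets lie in opposite order, near 10 and 5 in set 1 and near 3.5 and 7 in set 2, and the other genes keep the order given in the text in both lineages.

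Genes for cuticular hydrocarbons, the contact pheromones of flies, were mostly male-higher, with large female excesses in a pair of genes. Of 15 tested members, 13 were higher in males and 2 in females, with a median of 1.51. The 2 female-higher genes were those known for the female dienes. Fad2 (desatF), a desaturase of female oenocytes, read 10.04 to 10.81, median 10.61, in females and 2.24 to 2.25 in males, at least 248-fold. The elongase eloF read 8.72 to 10.09 in females and 2.38 to 2.90 in males, a difference of -6.80 (SE 0.16, adjusted p = 2.80e-17). No male array came within 5 units of a female array in either gene.

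In the other direction the elongase gene Elo68alpha, known for male hydrocarbon and cis-vaccenyl acetate synthesis, read 8.67 to 10.10 in males and 2.54 to 3.34 in females, a difference of 6.61 (SE 0.18). The reductase gene FarO was higher in males by 3.16 (SE 0.16), with 7 female arrays between 4.99 and 5.19 and the array of test female 2 at 4.12. Fatty acid synthase 2 (FASN2), an oenocyte enzyme, was higher in males by 2.80 (SE 0.13).

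Genes known for sex-biased expression in the head fat body, the tissue around the brain that answers to doublesex and fruitless, lay mostly on the male side. Of 9 tested, 7 were higher in males and 2 in females, with a median of 1.52. The list was made of genes known for a sex bias, so its direction is not independent evidence. The lipase-like gene sxe2 read 8.19 to 9.45 in males and 3.79 to 4.35 in females, a difference of 5.02 (SE 0.15, adjusted p = 8.49e-16). Cyp4d21 (sxe1), a cytochrome P450 needed for male courtship, had a median of 11.17 in males and 6.86 in females, a difference of 4.25 (SE 0.22). Obp99b read 11.07 to 11.50 in males and spread from 5.52 to 8.58 in females, a difference of 4.61 (SE 0.36).

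The female-specific satiety peptide gene fit was high in both sexes, at 11.03 to 11.95 in males and 12.21 to 13.20 in females, a difference of -1.10 (SE 0.17, adjusted p = 8.05e-06). Obp99a had a difference of -0.84 (SE 0.10) and no overlap. The 2 female-higher head fat body genes thus differed by about 1 unit, against more than 4 for sxe2, Obp99b and Cyp4d21.

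**Figure D3:**
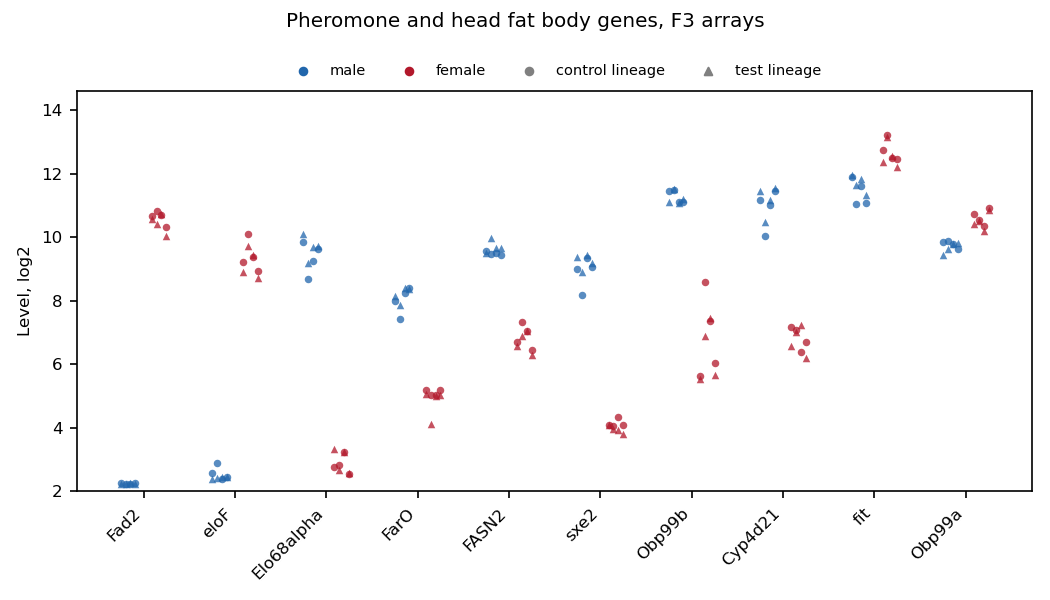
Log2 level (y axis) on each F3 array of pheromone genes and of genes known for sex-biased expression in the head fat body, males in blue and females in red, control lineage as circles and test lineage as triangles. Fad2 and eloF lie near the lowest value in all 8 males, and the 8 male points of Elo68alpha, FarO, FASN2, sxe2, Obp99b and Cyp4d21 lie above all 8 female points.

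Nerve, eye and muscle genes were higher in males almost throughout. All 26 tested photoreceptor and eye genes were higher in males (median 2.13), 26 of 29 synaptic genes (median 1.96) and 25 of 26 contractile muscle genes (median 1.72), with none higher in females in these lists. The background of male-higher calls was 44.0%. In the synaptic list Snap25, a vesicle fusion protein gene, read 10.93 to 11.17 in males and 7.46 to 8.93 in females, a difference of 2.71 (SE 0.17, adjusted p = 4.95e-11). The acetylcholine receptor subunit gene nAChRbeta1 (2.72) and the synapsin gene Syn (2.62) were close to it. Among eye genes chaoptin (chp) differed by 2.64 and the carotenoid cleavage gene ninaB by 2.39. Vha100-3, which is also in the vacuolar ATPase list, was the only member of the eye list with all female arrays under 2.57. It was at least 12.9-fold higher in males, and the tissue of that level was not measured.

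Female arrays varied in these lists more than male arrays did. The median level of the eye list was 8.63 to 8.97 on male arrays, 6.74 to 7.33 on female arrays 1, 2 and 3 of both lineages, and 6.21 and 5.60 on control and test female 4. Female 4 of both lineages also had the lowest synaptic and odorant-binding protein medians. Muscle behaved otherwise. The muscle list stood at 11.09 to 11.67 on male arrays, at 8.73 to 9.49 on 6 female arrays, and at 11.16 and 11.12 on control and test female 3. Act88F, the actin of indirect flight muscle, read 9.11 to 10.13 in males, 11.44 and 11.51 on the female 3 arrays and 6.59 to 8.11 on the other 6 female arrays, and it was not called (1.16, adjusted p = 0.101). Act87E (2.33), Prm (2.29), the paramyosin gene, and sls (2.23), the titin-like gene, did not overlap between the sexes even so. What made the number 3 females differ was not tested.

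**Figure D4:**
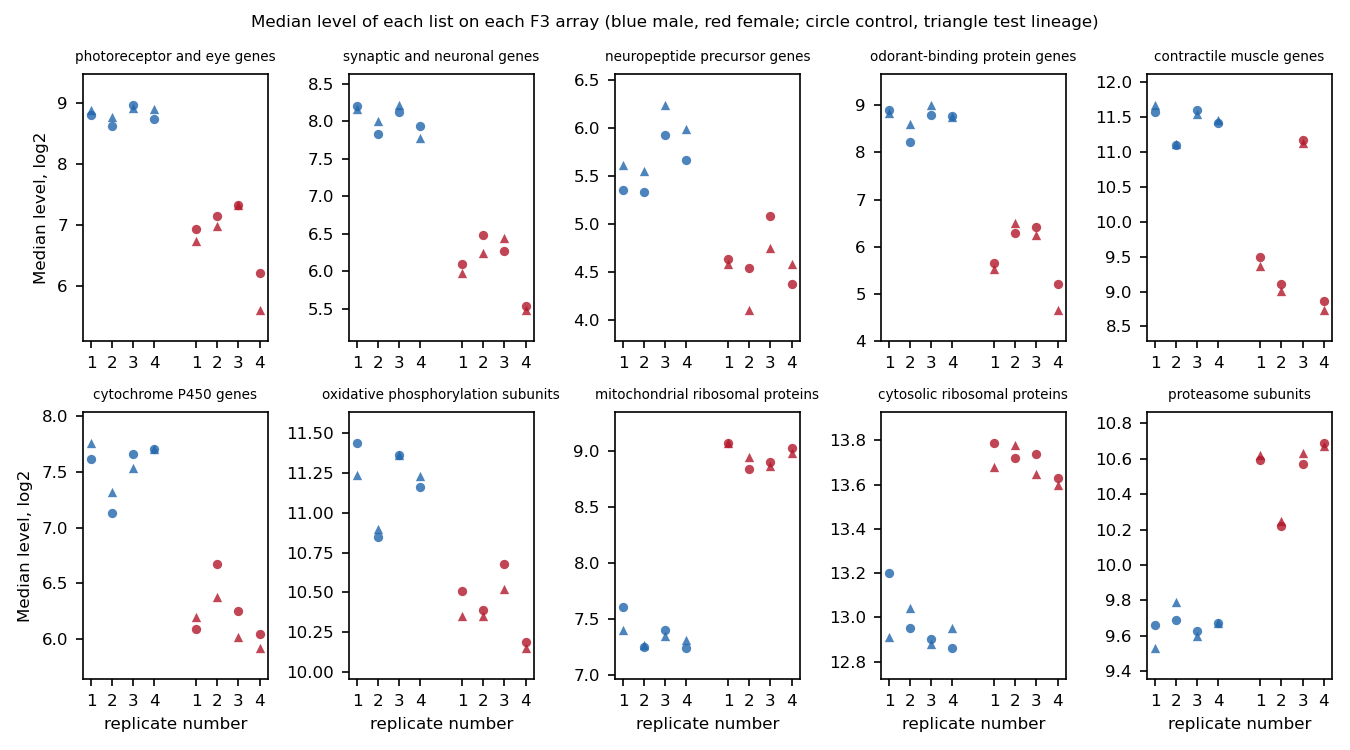
Median log2 level (y axis) of the tested members of 10 gene lists on each of the 16 F3 arrays, by replicate number (x axis), males in blue on the left and females in red on the right, control lineage as circles and test lineage as triangles. The number 3 females reach the male level for muscle genes (11.16 and 11.12), the number 4 females are lowest for eye genes (6.21 and 5.60), and the male and female points are otherwise apart in every panel.

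Neuropeptide genes mostly followed the same direction. Of 27 tested neuropeptide precursors, 22 were higher in males and 2 in females (median 1.00). Adipokinetic hormone (Akh), the fly's glucagon-like hormone, read 7.25 to 7.85 in males and 4.07 to 5.88 in females, a difference of 2.67 (SE 0.21, adjusted p = 1.34e-09). CCHa2, a nutrient-responsive peptide gene, differed by 2.65 and myosuppressin (Ms) by 2.58. The exceptions were Ilp7, made in neurons that innervate the female tract, at 3.20 to 5.29 in females with all males under 2.57 (at least 4.05-fold), and Gpb5, at most 2.89 in either sex. The Ilp7 difference was -1.75 in F2 flies but -0.07 (SE 0.15) and not called in F1 control flies.

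Odorant-binding proteins held both extremes. Of 29 tested, 25 were higher in males and 3 in females (median 2.04). Obp56f and Obp56g were higher in males by 8.69 and 7.47, and Obp51a, with a female median of 2.37, was at least 1015-fold higher in males. Which tissue gave these male levels, a sense organ or the reproductive tract, was not measured. Obp19c, on the X, read 6.78 to 8.39 in females and 2.27 to 2.36 in males, at least 33.0-fold, and Obp83cd was female-higher by at least 2.68-fold. Receptors were mostly out of reach: only 6 of 166 odorant, ionotropic and gustatory receptor genes passed the filter. Among these the ionotropic receptor gene Ir7c read 4.02 to 5.46 in females and 2.23 on every male array.

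Among detoxification genes the cytochrome P450 family was mostly male-higher, with 54 of 69 tested higher in males and 7 in females (median 1.41). In 14 of 24 UDP-glycosyltransferases (median 0.83) and 17 of 31 glutathione transferases (median 0.61) the male level was higher, shares closer to the 44.0% of all entries. Against the direction of its family, Cyp6a19 read 11.47 to 11.96 in females and 2.87 to 3.52 in males, a difference of -8.50 (SE 0.11, adjusted p = 3.56e-21). Next on the female side came Cyp6v1 (-2.54) and Cyp6u1 (-1.68). Cyp312a1 (7.29) and Cyp313a1 (4.36) led the male side, with medians of 10.10 and 11.45 in males and 2.75 and 7.04 in females. Ugt50B3 (4.97), Ugt37B1 (3.94) and Ugt305A1 (3.52) were the male-higher glycosyltransferases with the largest differences, and Ugt316A1 (-2.56) was the largest on the female side.

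The list of carbohydrate-digesting enzymes was mostly male-higher and that of gut proteases was divided. The first list held maltase genes, Amyrel and also LMan alpha-mannosidase genes. Of its 16 tested members 14 were higher in males (median 1.43), led by the maltases Mal-B2 (2.70), Mal-A7 (2.60) and Mal-A8 (2.40). Of 25 gut proteases 14 were higher in males and 5 in females, against 44.0% and 46.7% of all entries. Their median was 0.48, and 0.76 within batch 2. Jon99Ci was higher in males by 1.76 (SE 0.12), while Jon66Cii had medians of 4.24 in females and 2.66 in males and overlapped. Only 3 of the 25 proteases had male and female arrays that did not overlap, against 75.9% of all entries. Calls for Jon66Ci and Jon99Fi, both female-higher, were lost within batch 2.

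The peritrophic mucin list, named for the matrix lining the gut, held members with large differences each way. Of 15 tested, 8 were higher in males and 4 in females, against 44.0% and 46.7% of all entries. Muc12Ea, Muc4B and Mur2B, all on the X, had medians of 9.58, 7.55 and 6.72 in females and of 2.23, 2.77 and 2.26 in males. Mur18B and Muc11A, also X-linked, were higher in males by 2.13 and 1.97. The list median of 0.52 turned to -0.40 after quantile normalization.

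Energy stores and their enzymes leaned to males by small steps. Of 31 fat body storage and lipid genes, 21 were higher in males and 4 in females (median 0.53), and of 28 glycolysis, glycogen and trehalose genes 20 and 4 (median 0.67). The sterol-binding protein genes Npc2h (3.98) and Npc2g (2.35) were male-higher. Perilipin 2 (Lsd-2), a lipid droplet protein gene, read 11.44 to 11.89 in males and 12.83 to 13.27 in females, a difference of -1.30 (SE 0.07, adjusted p = 9.18e-12). Npc2e was higher in females by more (-2.96) but with wide spread, 9.90 to 12.83 against 7.19 to 10.27. The large male differences in glycolysis belonged to Hex-t2 (6.97), a testis hexokinase, Gpo2 (4.42) and Pglym87 (4.36). Among members with smaller differences the triose phosphate isomerase gene Tpi was female-higher by -0.32 (SE 0.05), lost after median centring.

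Immune genes were higher in either sex, and they are grouped by role here, a grouping made after their values were seen. Of 33 recognition and signalling genes 21 were higher in males and 12 in females (median 0.72). All 33 were called, against 90.7% of all entries. All 7 genes of the Toll core from spz to dl were higher in females (median -1.98, range -3.60 to -0.33), and 4 of 5 tested genes of the Imd core were too. Toll (Tl), the receptor, read 7.98 to 8.40 in males and 11.50 to 12.12 in females, a difference of -3.60 (SE 0.09, adjusted p = 7.00e-17). The kinase gene pll was female-higher by -2.05, and the transcription factor gene dorsal (dl) by -2.25. These genes also act maternally in the embryo's dorsoventral axis. The second probe sets went otherwise: that of Tl lay near 4 in both sexes (-0.05, adjusted p = 0.565), and that of dl was higher in males by 1.72 (SE 0.16).

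The reverse direction mostly held for recognition genes and for hemocyte and clotting genes. Recognition proteins were male-higher in 7 of 8 tested genes (median 1.27), and hemocyte and clotting genes in all 5 (median 1.43). The grouping by role was made with these values known, and SPE was in none of the roles. The serine protease gene SPE, which activates the Toll ligand, read 9.25 to 10.35 in males and 6.10 to 8.50 in females, a difference of 2.15 (SE 0.27). Prophenoloxidase 1 (PPO1), a melanization enzyme gene of crystal cells, differed by 2.08 and the thioester protein gene Tep3 by 1.93. Of 20 inducible antimicrobial peptide genes 12 were higher in males and 1 in females, with a median of 0.97, and 1.89 within batch 2. Drsl5 (2.22), BomT3 (1.99) and Drsl4 (1.96) led the male side. Drosomycin (Drs), a Toll-induced antifungal peptide gene, was the female-higher member, at 10.73 to 12.03 in males and 11.54 to 13.37 in females (-0.90, SE 0.24, adjusted p = 0.00181), a call lost within batch 2. Only 6 of the 20 did not overlap between the sexes, against 75.9% of all entries.

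Insulin and TOR genes were divided. Of 18 tested, 10 were higher in females and 5 in males (median -0.69, and -0.58 with genes under 2.57 in 1 sex set to their lower limits), a female share near the 46.7% of all entries. Ilp8, known as a relaxin-like peptide of follicle cells at ovulation, read 6.81 to 8.18 in females and 2.26 to 2.50 in males, at least 32.0-fold. The kinase gene mTor had medians of 8.38 in females and 5.16 in males (-2.99), and rictor, of the second TOR complex, was female-higher by -2.45. On the male side stood ImpL2, a secreted binding protein of insulin-like peptides, at 10.09 to 10.60 against 8.25 to 9.44 (1.57, SE 0.15), and the kinase gene Akt (0.64, SE 0.09). Ilp2, a peptide of the insulin-producing cells whose loss founded the test lineage, read 3.79 to 4.55 in males and 3.04 to 3.72 in females (0.94, SE 0.13), but turned to -0.23 after quantile normalization. The Ilp2 difference was -0.33 (SE 0.31) in F1 control flies and 0.35 (SE 0.25) in F2 flies, called in neither.

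Hormone and clock genes had members on both sides, where 44.0% of all entries were male-higher and 46.7% female-higher. Of 26 ecdysone and juvenile hormone genes 9 were male-higher and 13 female-higher, with a median of -0.22 that turned to 0.03 after median centring. The transporter gene E23 (-4.82), JhI-21 (-2.46) and the ecdysone synthesis gene spo (at least 9.19-fold, all males at 2.23) were higher in females, and Eip93F (1.92), JhI-26 (1.86) and Hr3 (1.45) in males. In the clock list of 13, 7 were male-higher and 3 female-higher, with a median of 0.97 that turned to -0.02 after quantile normalization. The activator gene cycle (cyc) read 9.02 to 9.72 in females and 6.01 to 6.53 in males (-3.08, SE 0.11), and the kinase gene doubletime (dco) was female-higher by -2.11. Output and light-input genes were male-higher: vri by 2.35, cry by 2.22 and Pdp1 by 1.99. Time of day at collection is not in the labels, and its part in the clock genes was not tested.

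The protein synthesis and degradation machinery was mostly female-higher. Of 69 mitochondrial ribosomal protein genes 68 were female-higher and none male-higher (median -1.53), against 46.7% of all entries. The largest were mRpL39 (-3.43), mRpL54 (-2.64) and mRpL21 (-2.41). The list medians were 7.24 to 7.61 on male and 8.84 to 9.07 on female arrays. Cytosolic ribosomal protein genes were female-higher in 34 of 41 and male-higher in 7 (median -0.60). Proteasome genes were female-higher in 25 of 40 and male-higher in 13 (median -0.55). Respiratory chain and ATP synthase genes went the other way, with 61 of 70 male-higher and 2 female-higher (median 0.68).

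Respiratory chain, cytosolic ribosome, proteasome and vacuolar ATPase lists each held members called at least 2-fold higher in males. They numbered 23 of 70, 6 of 41, 13 of 40 and 13 of 30, against 31.5% of all entries. The members with the largest male differences are mostly duplicates of a general subunit gene. In the respiratory chain COX7AL read 10.01 to 10.52 in males, and COX4L and COX6CL had male medians of 10.35 and 9.62, with all females under 2.57 (at least 212-fold, 217-fold and 135-fold). Among ribosomal genes RpL10Aa (6.52), RpS19b (4.91) and RpS28-like (at least 33.1-fold) were male-higher while RpS5b, at 13.62 to 13.83 in females and 7.64 to 8.30 in males, was the largest on the female side (-5.76). In the proteasome the male-higher genes included Prosalpha6T (4.81) and, with all females under 2.57, Prosbeta5R1 (at least 29.5-fold) and Prosbeta4R1 (at least 22.6-fold), against -1.26 for Prosalpha4 and -1.17 for Rpn12. The vacuolar ATPase list had Vha68-3 (at least 126-fold), VhaM9.7-d (5.68) and Vha36-2 (4.99) above and VhaM9.7-c (-0.92) below. Without the members whose lower sex lay wholly under 2.57, the medians were 0.57 for 62 respiratory genes, -0.63 for 36 proteasome genes and 0.04 for 25 vacuolar ATPase genes. These remaining members still had male differences of up to 6.94, 4.81 and 5.68.

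Heat shock genes were higher in either sex. Of 16, 7 were male-higher and 9 female-higher, near the 44.0% and 46.7% of all entries. Hsc70-2 was male-higher by 5.67, and the chaperonin genes Hsp60C and Hsp60B, with all females under 2.57, by at least 293- and 58.9-fold. The small heat shock genes Hsp26 and Hsp27 had medians of 12.88 and 13.04 in females and 9.06 and 9.64 in males (-3.57 and -3.29), and the regulator gene Hsf was female-higher by -2.27. Among cuticle genes Cpr67Fb (5.90), Cpr51A (2.60) and Cpr62Bb (2.24) led 13 male-higher members of 21, with none female-higher, and the list median of 0.68 turned to -0.02 after quantile normalization. The stress peptide gene TotC (1.28, SE 0.55) and the lysozyme gene LysX (1.03, SE 0.44) were called, with overlapping arrays and calls that were lost when any of several single arrays was left out. LysP was not called (0.49, adjusted p = 0.0529).

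Genes whose lower sex had a mean at least 2 units above the lowest value still differed by up to 8.56 units. Such means can be low: Marf1 and CG8173 had male means of 4.25, against medians over all probe sets of 4.36 to 4.5 on male arrays. By the rule that the lower sex lie at least 2 units above the lowest value, and outside the reproductive lists, the largest male differences were in Obp56g (7.47), CG7768 (6.76), CG31909 (6.46), CG7059 (5.34), Sgp (5.25), TTLL4B (5.13) and Rab3-GAP (5.06), then Ugt50B3 (4.97), dsx (4.93) and scpr-C (4.91). The largest female differences were in Marf1 (-8.56), a meiosis regulator, the checkpoint kinase gene lok (-7.41), the replication licensing gene dup (-6.76), the early embryonic histone gene BigH1 (-6.39), and the maternal and gap gene hb (-6.36). CG43134 (-6.21), CG7744 (-5.98), CG8173 (-5.86), the piRNA gene AGO3 (-5.85) and Alh (-5.85) completed that side. Genes in no reproductive list can still be active in the reproductive system, and the tissue of these was not measured. A second probe set gave another answer for 4 of these 20 genes: CG7768 (0.10), TTLL4B (0.65), Alh (1.43, male-higher) and dsx, as described above. Second probe sets also disagreed for Eip93F (0.58), GstE9 (-0.64 against 2.03) and ctrip (0.10 against -1.04).

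Chromosome arms differed in their split. On the X, 35.9% of 1556 tested genes were male-higher and 54.4% female-higher, with a median difference of -0.56. Leaving out the reproductive lists kept 1544 of these genes, with a median of -0.54. The median was 0.17 on 2L, 0.08 on 2R, -0.13 on 3L and 0.00 on 3R. On chromosome 4, 56.7% of 60 genes were male-higher and 35.0% female-higher (median 0.56). Arm names are those of the RefSeq annotation. The X median stayed the lowest and that of chromosome 4 the highest after either rescaling (-0.73 and 0.40 by quantiles, -0.31 and 0.81 by centring), while 2R, 3L and 3R changed sign. With no filter, which adds entries near the lowest value, the X median was -0.04 and that of chromosome 4 was 0.34, and the medians of the other arms were 0.

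In F3, with 8 arrays a sex, small differences were called that stayed uncalled in F1, with 3 arrays a sex. Among 2045 entries with an F3 difference under 0.5, 51.9% were called in F3, against 4.11% in the F1 control flies with 3 arrays a sex. Between 0.5 and 1 the shares were 97.5% of 1813 entries and 26.4%, and between 1 and 2 they were 99.9% of 3045 and 58.5%. Above 4 they were 100% and 99.2% of 1600. The median standard error was 0.10 to 0.12 in F3 above a difference of 0.5, against 0.28 to 0.40 in F1. The F1 controls called 6214 entries (55.8%), and 7580 with F1 control female 2 left out. Same-numbered control and test F3 arrays of a sex deviated together, as given below, and the F3 standard errors count them as separate. How much of the gap came from array number, single arrays or this pairing was not tested. Entries sorted by their F3 difference favour F3 in the smallest sizes, since the same values chose the sizes.

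**Figure D5:**
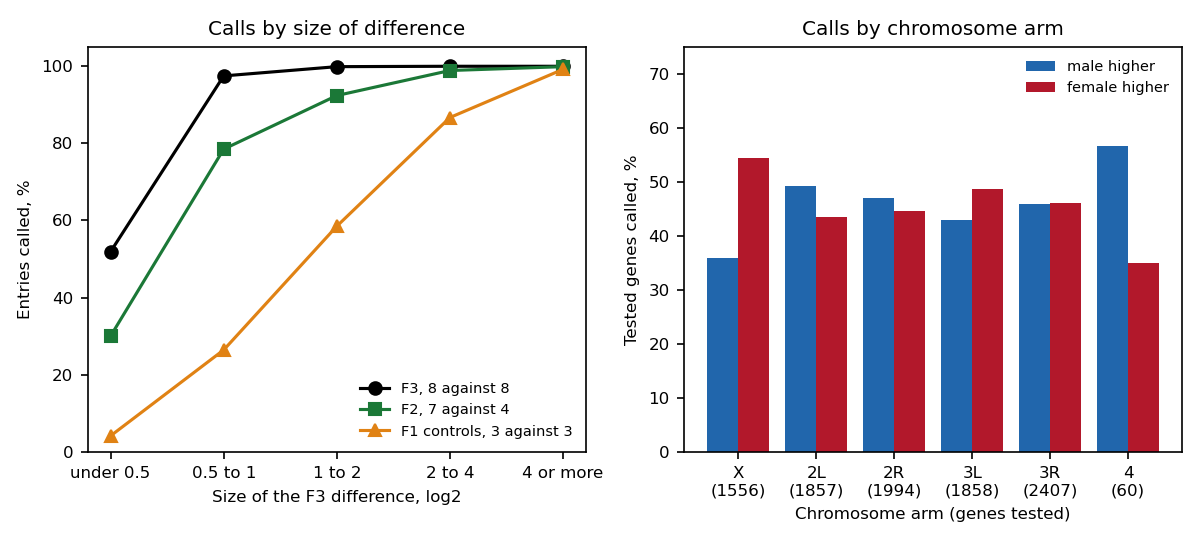
Left, percent of tested entries called (y axis) by the size of the F3 difference (x axis) in F3 (8 against 8 arrays), in F2 without 3 arrays that stand apart (7 against 4) and in the F1 controls (3 against 3). Right, percent of tested genes called higher in males (blue) and in females (red) on each chromosome arm, from 35.9% and 54.4% on the X to 56.7% and 35.0% on chromosome 4.

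Over all entries 90.7% were called in F3 and 55.8% in F1, and lists differed in how many F1 calls they had. Muscle genes were called in 25 of 26 in F3 and 21 in F1, and mitochondrial ribosomal genes in 68 of 69 and 61. Eye genes were called in 26 of 26 in F3 and 5 of 26 in F1, respiratory genes in 63 of 70 against 22, immune recognition and signalling genes in 33 of 33 against 9, neuropeptides in 24 of 27 against 5, and antimicrobial peptides in 13 of 20 against 3. Over all entries 3900 were called in F3 and not in F1, and 17 the other way. The sign of the difference was the same in F3 and F1 for 9798 of the 10097 entries called in F3. These generations share no arrays, and whether the sizes differ between them was not tested.

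The F2 flies, with 8 male and 6 female arrays, gave 7706 calls (69.2%), but 3 of their arrays stood apart. The array labelled F2 control male 3 had Yp1 at 12.097, Cp36 at 11.33 and osk at 10.21 together with the testis gene Mst87F at 12.78, whereas the other 7 F2 males had Cp36 at 2.39 to 2.58. F2 control and test female 2 had Cp36 at 2.77 and 8.18, against 13.61 to 13.95 in the other 4 females. All 3 carried the label of batch 3, as did F2 test male 3, and the part of the batch was not tested. Without these 3 arrays 9059 entries were called, and 9989 of the entries called in F3 had the same sign. Most lists kept their direction, with medians of 1.65 for odorant-binding protein, 1.78 for synaptic, 1.10 for P450 and -1.37 for mitochondrial ribosomal genes. Gut proteases did not: the F2 median was -0.11 with all arrays and -0.32 without the 3, against 0.48 in F3.

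The sex differences were not called different between the lineages. No entry was called in limma's test of the sex by lineage interaction. It set the male minus female difference of the test lineage against that of the control lineage. An unadjusted p under 0.05 was found for 129 of 11129 entries, fewer than the 5% that chance gives. The count was 252 with the replicate number as a block and 324 within batch 2. The main test left out the pairing of arrays described below. A lack of calls thus does not show that the lineages were alike. The 3 entries with the smallest p-values were Hex-t1, a testis hexokinase with an interaction of -0.62, mei-P22 and fipi, all with an adjusted p of 1.00 in limma. Within the control lineage 9403 entries differed between the sexes and within the test lineage 9633. The same-numbered control and test arrays of a sex deviated together from their group means, with correlations of 0.34 to 0.78 in all 8 pairs, so the 8 arrays of a sex behaved as 4 pairs. With each pair averaged, 4 against 4, 9739 entries were still called.

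Batches touched the sexes unevenly. Batch 2 held 4 male and 4 female arrays, batch 1 only 4 female arrays, and batches 3 and 4 only 2 male arrays each. Within batch 2 alone 10019 entries were called. There the list medians were 2.79 for eye, 2.29 for muscle, 2.28 for synaptic, 0.95 for respiratory, -1.53 for mitochondrial ribosomal and -0.58 for ribosomal genes. In batch 2 the cuticle median was 1.08 against 0.68 over all arrays, and the hormone list median was -0.08 against -0.22.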

How the data were processed

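Biotin-labelled cRNA from total RNA of whole flies was hybridised to Affymetrix arrays, per the labels' protocols. The deposited log2 levels were used as given. GCRMA and limma 3.46.0 are listed in the submitters' processing notes with no role, and the other steps are not given in the sources used here. The array holds 18952 probe sets, of which 183 controls were left out. A single gene symbol was given for 13647 probe sets, several for 402 and none for 4720. Of these 13647, 13544 were found in RefSeq (Release 6 assembly), used for current symbols and chromosome arms. Of 1094 genes with several probe sets, the one with the highest mean over all arrays was used.

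Entries above the 40th percentile of the F3 values (2.57) on at least 4 arrays were fitted in limma 3.58.1 (R 4.3.3, data.table, version 1.17.8) with sex and lineage, trended and robust moderation, 13 residual degrees of freedom and Benjamini-Hochberg adjustment; the interaction added 1 term. F2 flies and F1 controls were fitted apart. The fit was tested on simulated data. Figures used matplotlib 3.10.9. Members, lists and tests were chosen with earlier results of these data known. Genes were named by rule: in lists outside the gonads all tested members of lists up to 4, otherwise up to 3 called genes each way with the largest difference; in reproductive lists the 3 largest; all tested sex determination genes; the 5 largest each way over all genes; the 10 largest each way with both sexes at least 2 units above the lowest value; and the 3 smallest interaction p-values. Genes outside the rule (Act88F, the label markers, Toll pathway partners) were named after their values were seen.

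In the titles, the F3 arrays of each replicate number shared a code across both sexes and lineages. Same-numbered male and female arrays correlated in their deviations at 0.01 in the control arrays of number 2 and at 0.16 to 0.31 otherwise. The main fit did not pair the sexes by number, and whether same-numbered arrays had a common origin was not tested. With the replicate number as a block 10217 entries were called. The series text calls the replicates biological, without saying how they were raised; the number of arrays limits the precision. Alternatives were other normalizations, filters, probe set choices, batch terms, replicate blocks, single lineages and arrays left out.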

Additional observations from a re-analysis of the deposited data

Results flagged for a closer look

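In 203 named genes and both sexes, 406 groups of 8 F3 arrays were searched for an array whose gap to its nearest neighbour exceeded Dixon's critical value as a share of the group's range. That happened in 35 groups, where chance gives about 1 in 20, and 13 of the 35 lay at a level of 3 or lower, where the range itself is small. The cause was not tested in any of them.

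Control male 2 was the array most often apart. It was below the other males in PPO1 (6.86, others 8.10 to 8.85), ninaB (5.68, others 6.57 to 7.30), sxe2 (8.19, others 8.89 to 9.45), SPE (9.25, others 9.83 to 10.35), GstE9 (12.38), fabp (13.03) and Cyp6v1 (3.37). It was above them in the Y-linked gene ORY (5.94, others 3.31 to 4.52) and in eloF (2.90). Other male arrays apart were test male 2 in FASN2 (9.96), Lsd-2 (11.44), Muc12Ea (2.25) and Yp2 (2.54), test male 1 in mTor (5.87), test male 3 in Jon66Cii (3.05) and Or43b (2.24), control male 1 in RpL7-like (9.33) and Rpn12 (9.85), and control male 4 in Ugt50B3 (10.40).

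Among females, control female 2 was apart in Muc12Ea (7.69, others 9.18 to 10.34), Glys (10.79, others 11.48 to 11.75), Cyp312a1 (3.52), Acp53C14a (2.24) and ORY (2.25). Test female 2 was apart in SPE (6.10, others 7.58 to 8.50), FarO (4.12), COX4L (2.42), Mur82C (2.74) and Pp1-Y2 (2.43). Test female 4 was low in Yp2 (13.96, others 14.27 to 14.52) and Muc4B (6.64, others 7.42 to 8.04) and at 2.45 in Acp98AB. Control female 3 read 2.30 in Prosbeta4R1 and 2.53 in Vha100-3, and test female 1 read 2.48 in EbpII.

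Of the 5 label markers searched in F2, Yp1 (12.097, other males 2.23 to 3.18), Cp36 (11.33) and osk (10.21) set F2 control male 3 apart.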

How the results depend on the processing

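Over 14 other settings the number of F3 sex differences ranged from 8131 to 10766, and of those at least 2-fold from 6103 to 7657; the low values came from a filter at the 60th percentile, which tests only 8664 entries. Leaving out arrays or same-numbered pairs gave 9902 to 10159 and 7059 to 7455. With the replicate number as a block the counts were 10217 and 7271, and no interaction was called. Averaging pairs, leaving out pairs and blocks within a sex, the F2 fit without 3 arrays and the other probe sets were chosen after seeing the data. The interaction gave 1 call without a filter and 0 otherwise. The F2 counts ran from 7139 to 8373 and the F1 counts from 4966 to 7580 with single arrays left out, and with the block they were 8594 and 6511; the highest F1 count was without F1 control female 2. Of 38 list medians 27 were above 0 in the main fit and 26 to 27 with arrays left out. Of 6 arm medians 4 were above 0, 2 after quantile normalization, 1 without a filter, and 3 to 4 with arrays left out.

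Quantile normalization turned the median of the spermathecal list (-0.826), peritrophic list (-0.397), clock list (-0.016) and cuticle list (-0.017), and of arms 2R (-0.124) and 3R (-0.202), and it turned Sxl (0.003), her (-0.762), Ilp2 (-0.234) and fipi (-0.012). Median centring turned the hormone list (0.031), arm 3L (0.118), Sxl (0.137) and ND-ACP (0.075). The spermathecal median was -0.134 without a filter and -0.078 to 0.162 with arrays left out, and that of 3R -0.007 to 0.022, with -0.005 to 0.017 over single arrays and -0.003 and -0.006 without female pairs 3 and 4. ND-ACP was 0.03 with batch as a fixed term and within batch 2, fipi was -0.048 in the control lineage alone, and her was -0.003 with all 66 arrays. The cause was not tested. Of 203 named genes 23 changed call or sign in some setting, among them ND-ACP, fipi, LysX and TotC with single arrays left out. Signal near the lowest value limits the fold of genes at that level.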
